A study of Ovis aries with 6 samples.

Results

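De novo fatty acid synthesis and fatty acid activation were examined through 10 genes in the skin of Super Merino (SM) sheep, a fine wool breed, and Small Tail Han (STH) sheep, a coarse wool breed. The genes were taken by symbol from the deposited gene list, and all 10 symbols were present among the 28394 listed genes. FASN, ACACA and ACACB encode the enzymes that build the fatty acid chain, ACLY, ACSS2 and ME1 supply acetyl-CoA and NADPH, and ACSL1, ACSL3, ACSL4 and ACSL5 activate finished long-chain fatty acids. Skin was cut behind the shoulder blade of 3 SM and 3 STH ewes, 1 library per ewe, and the labels give an age of 9 months for every sheep while the methods of the study give a younger age. The breeds were kept on 1 farm with the same feed, the labels name no treatment, and whole skin was used, so each library mixed epidermis, follicles, glands, dermis and vessels.

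Fatty acid synthesis starts in the cytosol from acetyl-CoA. ATP citrate lyase (ACLY) makes it from citrate exported by mitochondria, and acetyl-CoA synthetase 2 (ACSS2) makes it from acetate, which rumen fermentation supplies in large amounts to ruminants. Acetyl-CoA carboxylase turns acetyl-CoA into malonyl-CoA, and fatty acid synthase (FASN) extends the chain with NADPH as reductant. Long-chain acyl-CoA synthetases (ACSL) then couple fatty acids to coenzyme A, the form in which they enter waxes, triglycerides, membranes or oxidation. In skin, the sebaceous gland is a major site of this synthesis, and its secretion becomes the wool grease of sheep.

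Total counts ranged from 28870583 to 44645091 per library, so that 3 counts corresponded to at most 0.104 CPM, counts scaled to library size, a floor that covers counting error only. All 10 genes were among the 15320 genes that reached 10 counts in 3 or more sheep, which were compared between the breeds by edgeR's quasi-likelihood test. CPM are scaled by TMM, and each log2 fold change is SM over STH. A gene was called where its adjusted p was under 0.05 and it differed by more than 1.5-fold in either direction. Markers of the labelled tissue were abundant in every library. The summed CPM of KRT5, KRT14, KRT15 and TP63 lay between 8712 and 15334, and that of 5 dermal fibroblast genes between 14172 and 20311.

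None of the 10 genes was called, and 0% of all tested genes were called by this test. At an unadjusted p under 0.05, ACSS2, FASN and ACLY were higher in SM sheep, and ACSL3 was higher in STH sheep. These are 3 of 10 genes against a background of 7.21% of all tested genes in the SM direction, and 1 of 10 against 10.8% in the STH direction. With upper quartile scaling these counts were 4 and 0, and the numbers over all genes moved from 1104 and 1658 to 1437 and 1402. In the same 4 genes the sheep of the breeds did not overlap, whereas every SM value exceeded every STH value in 12.3% of all tested genes and the reverse held in 13.3%. The median log2 fold change was 0.16 over the 10 genes and 0.02 over all tested genes.

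FASN, the multienzyme that assembles palmitate, had the highest level of the 10 genes per exon length, as given below. SM sheep 128, 30034 and 30126 had 768, 712 and 1085.5 CPM, against 577, 525 and 573 CPM for STH sheep XW3, XW5 and XW8. Every SM sheep lay above every STH sheep, and SM sheep 30126 lay far above the other 2 SM sheep. The means were 855 ± 202 (SD, n = 3) in SM against 558 ± 28.7 (SD, n = 3) in STH sheep, a ratio of 1.53. The log2 fold change was 0.62 ± 0.19 (SE, adjusted p = 0.247). In the Oar_v4.0 build, to which all positions here refer, FASN occupies 49888074 to 49905801 of chromosome 11.

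ACACA and ACACB encode acetyl-CoA carboxylases. The first is the cytosolic enzyme that feeds FASN, and the second sits at the mitochondrial surface, where its malonyl-CoA restrains fatty acid entry for oxidation. ACACA, on chromosome 11 from 12987306 to 13232020, had 162, 148 and 207 CPM in SM against 149, 136 and 140 CPM in STH sheep, each in the order given above. SM sheep 30034 lay just under STH sheep XW3, so the breeds overlapped. The log2 fold change was 0.28 ± 0.16 (SE, adjusted p = 0.344). ACACB, on chromosome 17 from 63516461 to 63634436, was scarce, with 3.24, 1.88 and 1.78 CPM in SM and 3.02, 4.50 and 3.28 CPM in STH sheep, from between 70 and 190 counts per library. SM sheep 128 lay among the STH sheep, and the log2 fold change was -0.65 ± 0.34 (SE, adjusted p = 0.324).

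ACSS2, on chromosome 13 from 63633566 to 63677889, had the highest log2 fold change of the 10 genes on the TMM scale, whereas FASN (0.91) exceeded it (0.82) once the length trend described below was removed. The SM sheep 128, 30034 and 30126 had 106, 116 and 173 CPM, against 74.3, 69.6 and 89.4 CPM for the STH sheep XW3, XW5 and XW8. No STH sheep reached the lowest SM sheep. The SM mean was 132 ± 36.0 (SD, n = 3) and the STH mean 77.8 ± 10.3 (SD, n = 3), a ratio of 1.69. The log2 fold change was 0.76 ± 0.21 (SE, adjusted p = 0.240 from the quasi-likelihood test). ACSS2 passed both thresholds in edgeR's likelihood ratio test (adjusted p = 0.0464) and in DESeq2 (adjusted p = 0.0381), where 0.868% and 1.02% of all genes were called in the SM direction. Among the members FASN came next in both, with adjusted p of 0.0941 and 0.0596. Leaving out SM sheep 128, ACSS2 also passed in the quasi-likelihood test, with a log2 fold change of 0.89 (adjusted p = 0.0325), in a fit that called 1175 genes in all.

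ACLY, the citrate-cleaving enzyme, lies on chromosome 11 from 41481694 to 41524460. It had 316, 325 and 474 CPM in SM and 274, 253 and 270 CPM in STH sheep. As for FASN, the breeds did not overlap and SM sheep 30126 stood highest. Its log2 fold change was 0.49 ± 0.18 (SE, adjusted p = 0.256). ME1, the cytosolic malic enzyme that yields NADPH, lies on chromosome 8 from 10260361 to 10474744. Its CPM were 78.9, 77.8 and 92.2 in SM and 96.3, 71.4 and 74.0 in STH sheep. The highest value belonged to STH sheep XW3, the other 2 STH sheep were the lowest of all, and the log2 fold change was 0.04 ± 0.16 (SE, adjusted p = 0.887). The sign of the ME1 difference turned when SM sheep 30126, STH sheep XW5 or STH sheep XW8 was left out.

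**Figure D1:**
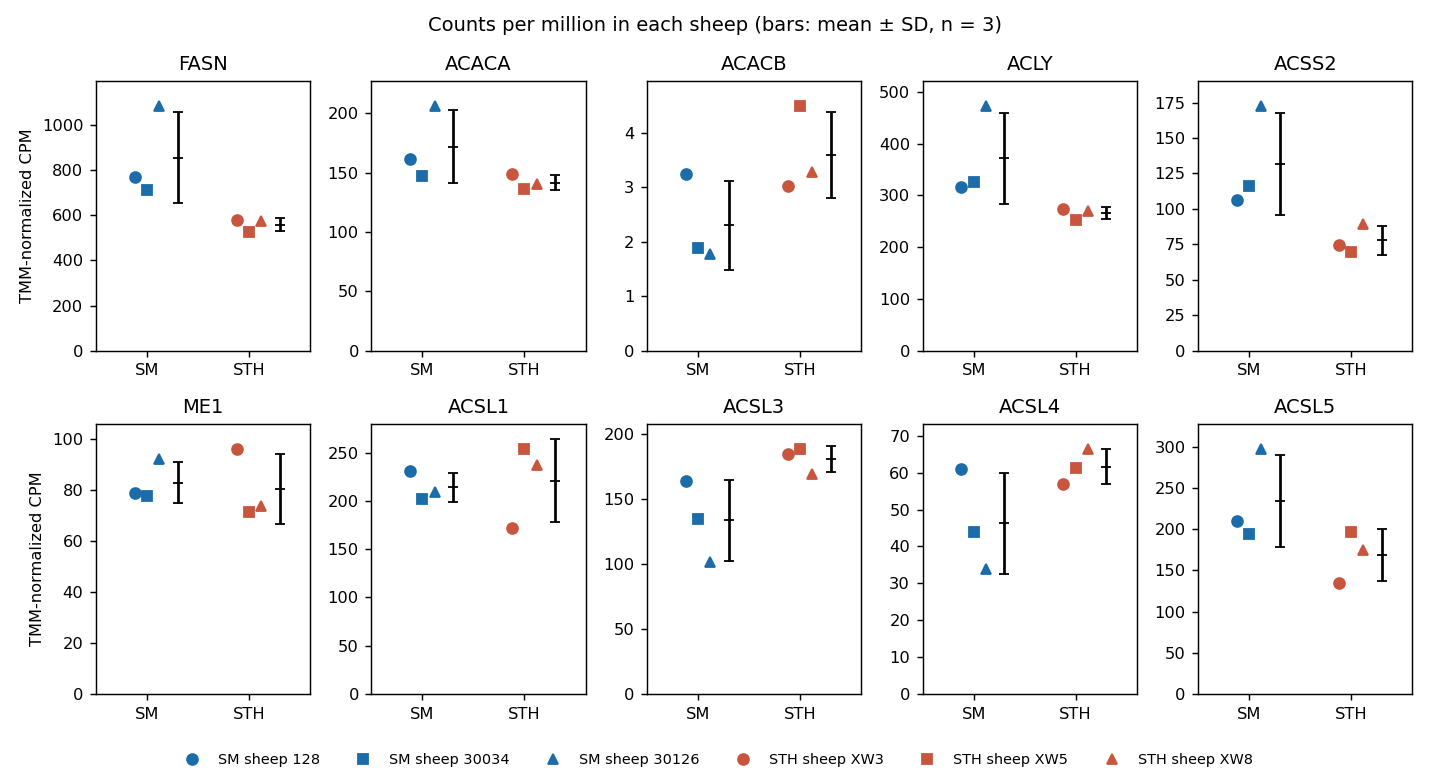
TMM-normalized CPM of each of the 10 genes (vertical axes from 0, scaled per gene) in the 3 SM (blue) and 3 STH (red) sheep, with 1 point per sheep and bars for the mean ± SD. FASN, ACLY and ACSS2 show the SM values above the STH values, and ACSL3 shows the reverse. SM sheep 30126 (blue triangle) is the highest or the lowest of the 6 sheep in 8 of the 10 genes. STH sheep XW5 (red square) is the highest in 3 genes and the lowest in 5.

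The 4 long-chain acyl-CoA synthetases did not share a direction. ACSL5, found on mitochondria and the endoplasmic reticulum, lies on chromosome 22 from 31791015 to 31852631. It had 210, 194 and 298 CPM in SM and 134, 196 and 175 CPM in STH sheep, and only STH sheep XW5 reached above an SM sheep. For this gene the log2 fold change was 0.48 ± 0.21 (SE, adjusted p = 0.278). ACSL3, an endoplasmic reticulum and lipid droplet enzyme on chromosome 2 from 224053839 to 224096104, had 164, 134 and 102 CPM in SM and 185, 188 and 169 CPM in STH sheep. No SM value reached the lowest STH value, although SM sheep 128 was close to STH sheep XW8. Its log2 fold change was -0.44 ± 0.18 (SE, adjusted p = 0.270).

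ACSL4, which prefers arachidonic acid and other polyunsaturated fatty acids, lies on the X chromosome from 118585667 to 118632704. It had 61.1, 43.8 and 34.0 CPM in SM and 57.0, 61.4 and 66.5 CPM in STH sheep. SM sheep 128 lay within the STH range while the other 2 SM sheep were below it, and the log2 fold change was -0.41 ± 0.21 (SE, adjusted p = 0.314). ACSL1, the synthetase best known from liver, heart and fat, lies on chromosome 26 from 13900372 to 13965682. It had 231, 202 and 210 CPM in SM and 172, 254 and 237 CPM in STH sheep, so that the SM sheep lay inside the STH range. The log2 fold change was -0.05 ± 0.17 (SE, adjusted p = 0.889). Summed over the 4 genes, the CPM were 628 ± 47.8 (SD, n = 3) in SM against 632 ± 77.3 (SD, n = 3) in STH sheep. The sums over FASN, ACACA, ACLY, ACSS2 and ME1, without ACACB, were 1614 ± 362 (SD, n = 3) and 1124 ± 60.6 (SD, n = 3). FASN alone made up 855 and 558 CPM of these means, and ACACB had means of 2.30 and 3.60 CPM.

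The differences depended in size on SM sheep 30126 and on a trend with exon length. This sheep had the highest value of the 6 in ACACA, ACLY, ACSS2, FASN and ACSL5 and the lowest in ACACB, ACSL3 and ACSL4. STH sheep XW5 was also often at an end, with the highest value in 3 genes and the lowest in 5. Without SM sheep 30126 the log2 fold change was 0.42 for FASN, 0.29 for ACLY, 0.53 for ACSS2, 0.28 for ACSL5 and 0.14 for ACACA. For ACSL3 and ACSL4 it was -0.26 and -0.22. After each sheep's trend of log2 CPM on exon length was removed, the value was 0.91 for FASN, 0.63 for ACACA and 0.65 for ACLY. It was 0.82 for ACSS2 and 0.58 for ACSL5, the 2 members with the smallest summed exon length. In the other direction it was -0.18 for ACSL3, -0.23 for ACSL4 and -0.41 for ACACB, and ACSL1 turned to 0.22. No member passed both thresholds with the trend removed. The members at an unadjusted p under 0.05 were then 5, all higher in SM sheep, and the numbers over all genes were 1593 in the SM and 1423 in the STH direction.

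**Figure D2:**
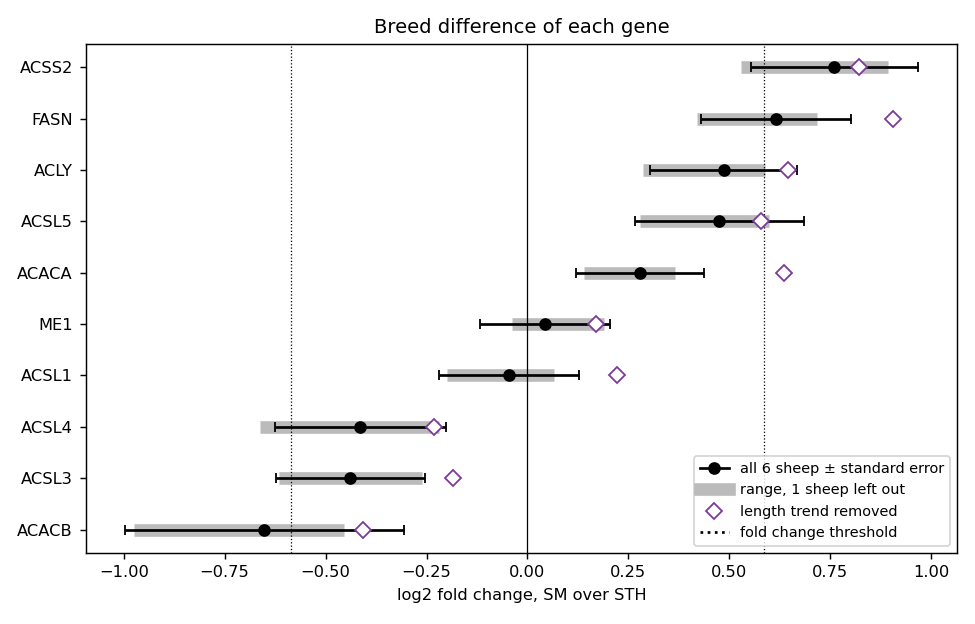
Log2 fold change (SM over STH, horizontal axis) of each gene with its standard error, the range over fits that leave out 1 sheep (grey), and the value with the exon length trend removed (diamond). The threshold of 1.5-fold is dotted. ACSS2 at 0.76 and FASN at 0.62 lie beyond it, ACACB at -0.65 lies beyond it on the other side, and every diamond lies to the right of its point.

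Levels of different genes were compared per exon length, as RPKM, which divides reads by exon length and by library size. In every sheep the order FASN, ACLY, ACSL5 held at the top and ACACB came last. Mean RPKM were 75.7 ± 18.4 (SD, n = 3) in SM against 47.9 ± 3.23 (SD, n = 3) in STH sheep for FASN, 58.7 ± 14.6 (SD, n = 3) and 40.6 ± 2.44 (SD, n = 3) for ACLY, and 47.5 ± 11.6 (SD, n = 3) and 33.0 ± 5.54 (SD, n = 3) for ACSL5. Among the SM sheep the ranges of neighbours overlapped from FASN down to ACSS2, and SM sheep 30126 was the highest in all 4 genes. Among the STH sheep the first 3 genes did not overlap, although the lowest ACLY level (38.1 RPKM) and the highest ACSL5 level (38.0 RPKM) nearly met.

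ACSS2 (31.6 RPKM in SM, 18.1 in STH sheep), ACSL1 (18.8 in both) and ME1 (14.1 and 13.3) followed. Within STH sheep ACSL1, ACSS2, ME1 and ACSL3 overlapped each with the next, and within SM sheep the first 3 of these were separate. ACSL3 (9.75 and 12.8 RPKM) and ACACA (10.2 and 8.16) changed places between the breeds, overlapping in SM sheep but not in STH sheep. ACSL4 had 5.07 and 6.56 RPKM. ACACB had 0.187 ± 0.0611 (SD, n = 3) and 0.284 ± 0.0581 (SD, n = 3) RPKM and lay below every other member in every sheep.

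**Figure D3:**
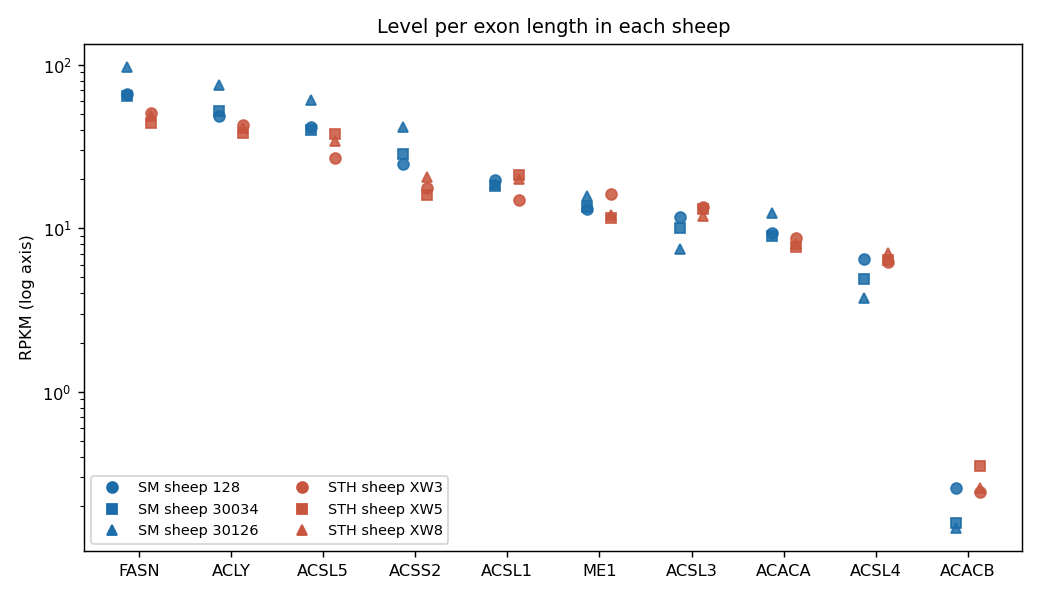
RPKM deposited for each gene (logarithmic vertical axis) in the 3 SM (blue) and 3 STH (red) sheep, with genes ordered by their mean level. FASN spans 44.4 to 97.0 RPKM and ACACB 0.147 to 0.351 RPKM over the 6 sheep.

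Ratios of levels within a sheep do not depend on the scaling between libraries. How often ratios or shares separate the breeds over all genes was not examined, and several ratios here share a gene. The level of ACLY was 1.96, 1.84 and 1.80 times that of ACSS2 in the SM sheep, in the order 128, 30034 and 30126, against 2.43, 2.39 and 1.99 times for the STH sheep in the order XW3, XW5 and XW8. The transcript for acetyl-CoA from citrate was thus more abundant than that for acetyl-CoA from acetate in all 6 sheep. The ratio was lower in every SM sheep than in any STH sheep, although SM sheep 128 (1.96) and STH sheep XW8 (1.99) nearly met. The exons of ACLY and ACSS2 summed to 0.561 and 0.369 times the length of those of FASN. FASN stood at 7.07, 7.19 and 7.83 times the level of ACACA in SM and at 5.79, 5.75 and 6.08 times in STH sheep. This ratio did not overlap either, and it varied little within a breed, but the exons of ACACA summed to 1.49 times the length of those of FASN. The level of FASN was 1.29 ± 0.0678 (SD, n = 3) times that of ACLY in SM and 1.18 ± 0.0124 (SD, n = 3) times in STH sheep. ACACB made up 1.86% ± 0.761 (SD, n = 3) of the summed acetyl-CoA carboxylase RPKM in SM against 3.39% ± 0.850 (SD, n = 3) in STH sheep. Here SM sheep 128, at 2.68%, lay just under STH sheep XW3, at 2.72%.

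ACSL5 supplied the largest share of the summed ACSL RPKM in every sheep. Its share was 52.2%, 54.9% and 67.1% in SM against 43.8%, 48.1% and 46.6% in the STH sheep, so the breeds did not overlap. The share of ACSL3 was 14.7%, 13.7% and 8.28% in SM and 21.8%, 16.7% and 16.3% in STH sheep, again without overlap and in the opposite order. These shares keep the trend with exon length, and the exons of ACSL5 and ACSL3 summed to 0.436 and 1.21 times the length of those of FASN. ACSL1 held 23.3% ± 2.48 (SD, n = 3) and 26.2% ± 1.69 (SD, n = 3), and ACSL4 6.36% ± 2.05 (SD, n = 3) and 9.29% ± 1.01 (SD, n = 3). For both of these the breeds overlapped.

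**Figure D4:**
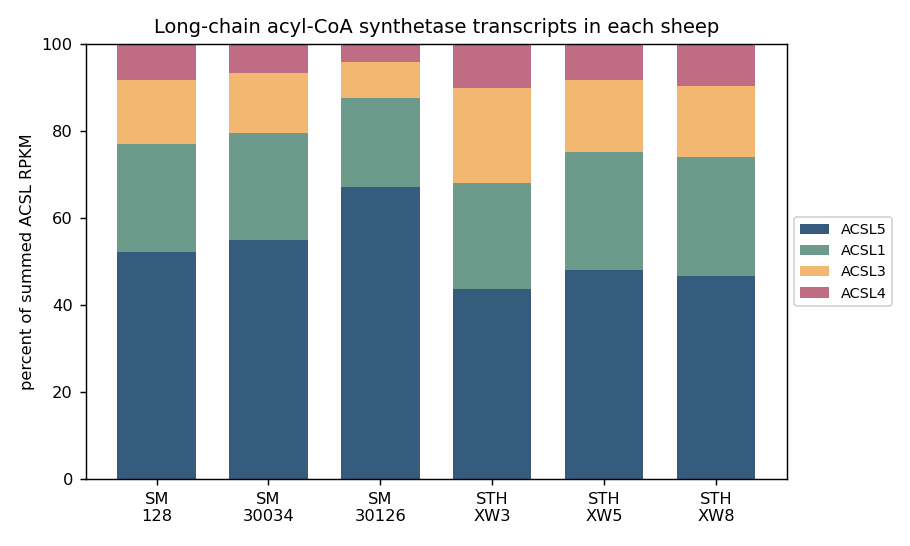
Share of each of ACSL1, ACSL3, ACSL4 and ACSL5 in the summed RPKM of these 4 genes (vertical axis, percent) in each sheep. ACSL5 ranges from 43.8% in STH sheep XW3 to 67.1% in SM sheep 30126.

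Other genes around this pathway were taken as 6 lists, 106 genes in the files, of which 104 were tested. None was called by the quasi-likelihood test. At an unadjusted p under 0.05 there were 23 in the SM direction and 5 in the STH direction, beside 7.21% and 10.8% of all tested genes. The likelihood ratio test called 3 and DESeq2 5 of them, all higher in SM sheep. In that direction these tests called 0.868% and 1.02% of all genes. Over all genes they called 133 and 156 in the SM direction and 219 and 283 in the STH direction. Without SM sheep 30126, the numbers at an unadjusted p under 0.05 were 14 and 4, and without STH sheep XW5 they were 15 and 1. The share of all tested genes at that threshold is not given for these fits.

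The 18 genes of acetyl-CoA and NADPH supply had their median log2 fold change at 0.35, and 6 of them had an unadjusted p under 0.05, all in the SM direction. The median was 0.16 without SM sheep 30126. TKT, the transketolase of the pentose phosphate pathway, had 333 ± 49.6 (SD, n = 3) CPM in SM against 207 ± 10.1 (SD, n = 3) CPM in STH sheep. The log2 fold change was 0.69 ± 0.15 (SE, adjusted p = 0.200), and both the likelihood ratio test and DESeq2 called it. For TALDO1, the transaldolase of that pathway, it was 0.63 ± 0.21 (SE, adjusted p = 0.248). For ACO1, the cytosolic aconitase, it was 0.53 ± 0.19 (SE, adjusted p = 0.252).

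Among 28 regulators and cofactor enzymes the median log2 fold change was 0.22, and 0.12 without SM sheep 30126. At an unadjusted p under 0.05 there were 5 in the SM and 3 in the STH direction, and the likelihood ratio test and DESeq2 called 0 of them. SREBF1, which encodes a transcription factor that binds sterol regulatory elements and drives lipogenic genes, had 112 ± 17.0 (SD, n = 3) CPM in SM against 76.6 ± 2.97 (SD, n = 3) CPM in STH sheep, without overlap. Its log2 fold change was 0.55 ± 0.15 (SE, adjusted p = 0.240), and its adjusted p was 0.0480 in DESeq2 at a fold change under the threshold. THRSP and MID1IP1, a pair of related proteins of lipogenic tissue of which the second promotes assembly of acetyl-CoA carboxylase, had log2 fold changes of 0.77 ± 0.29 (SE, adjusted p = 0.255) and 0.55 ± 0.20 (SE, adjusted p = 0.255). BTD, which recycles the biotin that carboxylases need, had 0.54 ± 0.17 (SE, adjusted p = 0.247).

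INSIG1, which holds the SREBP precursors in the endoplasmic reticulum, differed less, with a log2 fold change of 0.35 ± 0.15 (SE, adjusted p = 0.270). NR1H3, the liver X receptor alpha, had 0.26 (adjusted p = 0.410), and MLXIPL, the carbohydrate-responsive factor, had -0.32 at 2.34 CPM in SM and 2.91 CPM in STH sheep (adjusted p = 0.688). In the STH direction stood AASDHPPT, which attaches the phosphopantetheine arm that FASN requires, at -0.55 ± 0.16 (SE, adjusted p = 0.246). The remaining 2 of that direction, named after their values were seen, were INSIG2 at -0.61 and MBTPS2, a protease that releases SREBP, at -0.66 (adjusted p = 0.252 and 0.247).

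The other acyl-CoA synthetases, 18 genes, had their median log2 fold change at 0.12, with 4 genes in the SM and 1 in the STH direction at an unadjusted p under 0.05. This median was 0.27 over the genes with at least 1 CPM in 3 sheep, and between 0.18 and 0.28 whichever sheep was left out, the highest without SM sheep 128. AACS, which activates acetoacetate for lipid synthesis, had 90.1 ± 12.4 (SD, n = 3) and 60.4 ± 7.06 (SD, n = 3) CPM and a log2 fold change of 0.58 ± 0.16 (SE, adjusted p = 0.240). The fatty acid transport proteins SLC27A1 and SLC27A4 had 0.57 and 0.51 (adjusted p = 0.250 and 0.255). SLC27A5, named after its value was seen, was the 1 gene in the STH direction, at -0.58 (adjusted p = 0.273).

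For mitochondrial beta-oxidation, the reverse route, 19 genes gave a median log2 fold change of 0.36, and 0.24 without SM sheep 30126, with 8 genes in the SM and 0 in the STH direction at an unadjusted p under 0.05. ECI2, an enoyl-CoA isomerase, had 193 ± 39.3 (SD, n = 3) and 103 ± 12.9 (SD, n = 3) CPM and a log2 fold change of 0.90 ± 0.18 (SE, adjusted p = 0.185). SLC25A20, the carnitine carrier of the inner mitochondrial membrane, had 0.94 ± 0.21 (SE, adjusted p = 0.200), and ECHS1, the short-chain enoyl-CoA hydratase, had 0.64 ± 0.18 (SE, adjusted p = 0.240). The likelihood ratio test called ECI2 and SLC25A20, and DESeq2 called these, ECHS1 and ACAA2. Mitochondrial fatty acid synthesis and lipoylation (8 genes tested) had a median of 0.25 with 0 genes at an unadjusted p under 0.05 and an adjusted p of at least 0.330. That median was 0.13 without SM sheep 30126 and 0.16 without STH sheep XW5. Acyl-CoA binding proteins and thioesterases (13 tested) had a median of 0.06, which was -0.10 with the length trend removed and ran from 0.0026 without STH sheep XW8 to 0.14 without SM sheep 128. At an unadjusted p under 0.05 stood 1 gene, ACBD5, at -0.74 (adjusted p = 0.260).

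**Figure D5:**
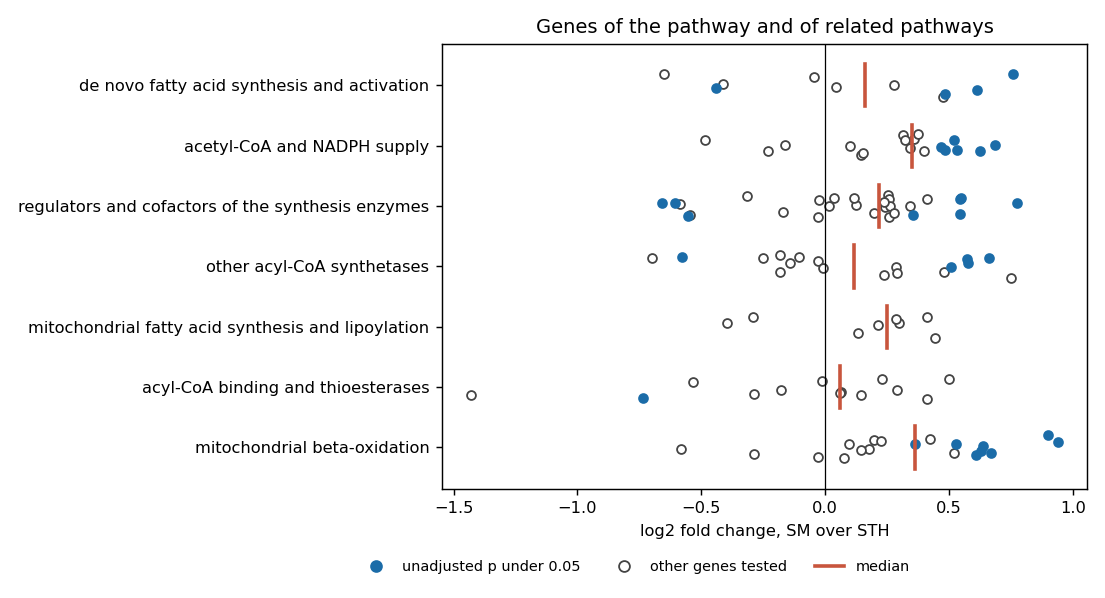
Log2 fold change (SM over STH, horizontal axis) of every tested gene of the 10 members and of the 6 other lists, with genes at an unadjusted p under 0.05 filled and the list median as a bar. Medians are 0.16 for the members, 0.35 for acetyl-CoA and NADPH supply and 0.36 for beta-oxidation.

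The summed CPM of sebaceous gland, adipocyte and smooth muscle markers did not overlap between the breeds. In bulk skin, fewer cells of a type and less RNA per cell cannot be told apart. All 7 sebaceous gland markers had a positive log2 fold change, 4 of them at an unadjusted p under 0.05, and their summed CPM were 1437 to 1859 in SM and 727 to 1302 in STH sheep. DGAT2L6, ELOVL3 and AWAT1 had log2 fold changes of 2.38, 1.06 and 1.29 (adjusted p = 0.0853, 0.234 and 0.247). The study places them in triacylglyceride, fatty acid and wax ester synthesis, in that order. SM sheep 30126 had the highest sebaceous sum and the highest FASN, ACLY and ACSS2. STH sheep XW5 had the highest sebaceous sum of its breed (1302 CPM, against 727 in XW3 and 854 in XW8). It had the lowest FASN, ACLY and ACSS2 of the 6 sheep. The sebaceous sum of XW5 was mostly FAR2 (531 CPM), SOAT1 (392 CPM) and ELOVL3 (291 CPM). AWAT1, unlike the other sebaceous markers, was higher in XW8 (36.0 CPM) than in XW5 (32.1 CPM). Adipocyte markers gave 56.2 to 102 CPM in SM and 170 to 208 CPM in STH sheep, with 3 of 7 tested genes in the SM direction. That sum was mostly FABP4 (log2 fold change -1.84, adjusted p = 0.159). LPL was also lower in every SM sheep than in any STH sheep (log2 fold change -0.97, adjusted p = 0.260). ADIPOQ stood at 0.198 to 8.70 CPM over the 6 sheep and LEP at 0 counts in 3 sheep.

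Of the other lists, 4 of 4 smooth muscle genes were higher in STH sheep, with sums of 782 to 892 and 1380 to 1760 CPM. All 3 endothelial genes had positive log2 fold changes, with sums of 428 to 558 CPM in SM and 259 to 434 CPM in STH sheep. Keratinocyte, fibroblast, leukocyte and skeletal muscle sums overlapped between the breeds, and skeletal muscle MYH1 and MB were at 0 counts in some sheep. Still, 4 of 4 keratinocyte, 4 of 5 fibroblast, 2 of 4 leukocyte and 5 of 5 tested skeletal muscle genes were higher in STH sheep. At an unadjusted p under 0.05 stood KRT14 (-0.51), DCN (-0.35) and ACTA1 (-2.18) in that direction and CD3E (0.61) in the SM direction. The part of any of these cell types in the values of the 10 genes was not tested.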

How the data were processed

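RNA from the skin of 3 ewes per breed was read as paired-end libraries. Reads were checked with FastQC per the submitters' notes, and the authors mapped them to Oar_v4.0 with the RNA-seq plugin of CLC Genomics Workbench. The count deposited for each gene is raw. The RPKM deposited by the authors follows the count and the exon length within a sheep, and was used only to compare levels between genes and to derive relative exon lengths. Chromosome names and the symbols of KRT14, MYH1 and MYH2 come from the name table.

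Genes reaching 10 counts in 3 or more sheep were tested with edgeR 4.0.16 in R 4.3.3 (TMM, estimateDisp, glmQLFit and glmQLFTest with default settings, breed as the only term), with Benjamini-Hochberg adjustment over all 15320 genes. The standard error is the size of the log2 fold change over the square root of F. The test was tried on simulated counts. Members and lists were chosen with earlier results of these data known, so they are described by counts and medians. Named genes are the members, 6 fixed regulators and, per pathway list, up to 3 genes with the smallest unadjusted p under 0.05. Alternatives were DESeq2 1.42.0, the likelihood ratio test, limma-voom (limma 3.58.1), the newer dispersion estimate, RLE and upper quartile scaling, other filters and thresholds, removal of a loess trend on length, and each sheep left out. Counts of members and of other pathway genes at an unadjusted p under 0.05 were added after seeing the data. The deposited TPM and CPM were not used. NDUFAB1, ACOT1, ACOT2, ACOT4 and ACADM were absent from the symbols matched and are not analysed here.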

Additional observations from a re-analysis of the deposited data

How the results depend on the processing

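The number of genes called was 0 with the quasi-likelihood test and limma-voom, 352 with the likelihood ratio test, 439 with DESeq2, 2 with the newer dispersion estimate, 2 without a filter, 8 with the length trend removed, 5 at an adjusted p under 0.1 and 2762 at an unadjusted p under 0.05. Over fits without 1 sheep it ran from 0 to 1175, the highest without SM sheep 128. Members called were 0, but 1 (ACSS2) with the likelihood ratio test, with DESeq2 and without SM sheep 128, and 4 at an unadjusted p under 0.05. Other pathway genes called were 0, but 3 with the likelihood ratio test, 5 with DESeq2, 0 to 13 without 1 sheep (13 without SM sheep 128), and 28 at an unadjusted p under 0.05. Without 1 sheep, members at an unadjusted p under 0.05 numbered 2 (without STH sheep XW3 or XW8) to 7 (without SM sheep 128). Other pathway genes at that threshold numbered 16 to 41, the lowest without STH sheep XW5 and the highest without SM sheep 128. They numbered 18 without SM sheep 30126 or STH sheep XW8. The share of all tested genes at that threshold is not given for these fits. Over all genes, the fit without SM sheep 128 called 203 in the SM and 972 in the STH direction. The median over the members was 0.40 with the length trend removed and ran from 0.06 to 0.25 without 1 sheep. The ratio of summed member CPM, SM over STH, was 1.28 and ranged from 1.15 to 1.36.

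Among the alternative values of single members 141 kept their sign and their side of the thresholds, 3 passed them (ACSS2) and 6 had the opposite sign. The last were ME1 at -0.025 without SM sheep 30126, -0.037 without STH sheep XW5 and -0.015 without STH sheep XW8, and ACSL1 at 0.22 with the length trend removed, 0.066 without STH sheep XW5 and 0.0071 without STH sheep XW8. Over fits without 1 sheep ME1 reached 0.19 and ACSL1 reached -0.20. The cause of these shifts was not tested. Levels were compared between genes as RPKM only, since within a sheep RPKM is proportional to count over length. Promoter and protein sequences were not analysed here. No paired analysis was possible because the sheep are separate animals without shared numbers, and 3 per breed set the precision.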
